A study of Mus musculus with 4 samples.

Results

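The interferon regulatory factors Irf1, Irf2, Irf3, Irf5, Irf7 and Irf9 and the signal transducers Stat2, Stat3 and Stat6 were examined in macrophages that lack RBP-J. These 9 genes of 22026 were chosen by symbol, and all of them had an entry in each of the 4 libraries and passed the filter on low values. The 2 RBP-J KO libraries came from bone marrow derived macrophages of Rbpj f/f;LysM cre mice, in which Cre is driven by the lysozyme gene and so acts in myeloid cells, neutrophils included. The 2 WT libraries came from the same cells of wildtype control mice, with alleles not given in the sources used here. All mice were C57BL/6 and 8 weeks old, and marrow was grown for 3 days in a supernatant with the equivalent of 20 ng/ml M-CSF, the growth factor of macrophages. Values are FPKM, fragments scaled to transcript length and library size, as the authors deposited them. Their absolute scale is unclear and the read depth is unknown.

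Type I interferon activates JAK kinases at its receptor, and these phosphorylate STAT proteins. STAT2 joins IRF9 and another STAT in the complex ISGF3, which binds interferon-stimulated response elements (ISRE) in antiviral genes. IRF3 and IRF7 are switched on by sensors of viral nucleic acid and turn on the interferon genes themselves, with IRF7 also an interferon-induced gene that feeds the loop. IRF5 acts downstream of Toll-like receptors on inflammatory cytokines. IRF1 is induced by interferon gamma through a STAT site (GAS), while IRF2 binds the same sites and can oppose it. STAT3 carries IL-6 and IL-10 signals and STAT6 those of IL-4 and IL-13. RBP-J, the DNA-binding partner of Notch, represses or activates its targets depending on the proteins bound to it.

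The promoters of Irf1, Irf2, Irf7 and Stat2 are shown because Irf1, Irf7 and Stat2 had the largest differences between genotypes among the members over all 4 libraries and Irf2 is the counterpart of Irf1, for which the upstream of 2 windows is given. Each window runs from 250 bases before to 50 bases after the gene start in RefSeq on build GRCm38.p6, written 5′ to 3′ on the strand of the gene. Capitals mark matches on either strand to the ISRE letters, TTTC, any 2 bases and TTTC again, or to the GAS letters, TTCNNNGAA. TGGGAA, the core of RBP-J sites, was searched too and has no match in these 4 windows.
Irf1 promoter, chr11:53769764-53770063, plus strand: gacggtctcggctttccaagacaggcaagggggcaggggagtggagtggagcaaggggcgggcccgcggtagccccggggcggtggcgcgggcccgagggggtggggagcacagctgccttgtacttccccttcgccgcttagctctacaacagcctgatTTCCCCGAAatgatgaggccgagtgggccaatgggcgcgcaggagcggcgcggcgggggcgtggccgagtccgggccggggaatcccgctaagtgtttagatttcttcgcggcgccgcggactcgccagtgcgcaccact
Irf2 promoter, chr8:46739495-46739794, plus strand: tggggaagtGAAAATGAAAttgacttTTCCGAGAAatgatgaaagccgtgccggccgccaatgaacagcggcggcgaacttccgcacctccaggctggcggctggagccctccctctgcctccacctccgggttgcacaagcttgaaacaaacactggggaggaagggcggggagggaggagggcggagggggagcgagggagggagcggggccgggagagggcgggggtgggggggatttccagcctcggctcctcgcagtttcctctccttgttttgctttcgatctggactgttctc
Irf7 promoter, chr7:141266375-141266674, minus strand: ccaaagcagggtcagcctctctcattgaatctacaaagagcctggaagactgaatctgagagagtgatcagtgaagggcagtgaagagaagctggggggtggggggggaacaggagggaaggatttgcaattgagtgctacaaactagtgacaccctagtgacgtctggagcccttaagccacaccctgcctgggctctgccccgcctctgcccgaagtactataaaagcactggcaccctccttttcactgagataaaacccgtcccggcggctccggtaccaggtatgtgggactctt
Stat2 promoter, chr10:128270248-128270547, plus strand: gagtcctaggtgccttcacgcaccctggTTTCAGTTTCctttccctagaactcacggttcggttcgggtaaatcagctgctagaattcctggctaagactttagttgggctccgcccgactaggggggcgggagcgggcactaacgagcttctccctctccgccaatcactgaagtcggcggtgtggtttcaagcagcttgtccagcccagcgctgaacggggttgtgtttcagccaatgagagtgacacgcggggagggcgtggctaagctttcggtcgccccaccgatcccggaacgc
The Irf1 window holds a GAS match 90 bases before the start. The Stat2 window holds an ISRE match 222 bases before the start, and the Irf2 window holds an ISRE match 241 bases and a GAS match 224 bases before it. No letters of these motifs stand in the Irf7 window, which says nothing of sites elsewhere in the gene. Over 32851 RefSeq windows of the same length, 3.44% held the ISRE letters, 8.30% the GAS letters and 25.6% the RBP-J core. All 9 members matched a window, 11 windows in all. The RBP-J core stood in those of Irf3, Irf5 and Irf9, with no overlap with another motif searched.

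The libraries differed by replicate number as well as by genotype. Both replicate 1 files list genes and both replicate 2 files list transcripts. The Y-linked gene Ddx3y was at 174 FPKM in RBP-J KO and 193 FPKM in WT in replicate 1 and listed at 0 in replicate 2, while Xist was listed at 0 in replicate 1 and stood at 290 and 268 FPKM in replicate 2, so that replicate numbers also separate the sexes. Differences are therefore given inside pair 1 (RBP-J KO replicate 1 against WT replicate 1) and pair 2 (the replicate 2 libraries) as well as over all libraries. All 8 macrophage markers, Csf1r and Cd68 among them, were above 1 FPKM in every library, with summed levels of 19091 and 12556 FPKM in RBP-J KO and 16834 and 15405 FPKM in WT. Of these, Cd14 (764 and 800 FPKM in RBP-J KO against 1715 and 1570 FPKM in WT) and Lyz2, the gene that drives Cre (94.3 and 115 FPKM against 218 and 192 FPKM), were lower in both pairs with no overlap of the groups, at limma adjusted p-values of 0.528 and 0.619. Cd68 was lower without overlap as well, at 5821 and 5173 FPKM in RBP-J KO against 6146 and 6473 FPKM in WT. Of all tested genes, 18.2% were lower without overlap, 34.1% lower in both pairs and 25.1% higher in both pairs. Fcgr1 and Mertk were higher in both pairs, and 3 macrophage markers went in opposite directions. The 6 monocyte markers, none at 0, summed to 1184 and 1119 FPKM in RBP-J KO and to 743 and 864 FPKM in WT. Of these, 4 were higher in RBP-J KO in both pairs, against 25.1% of all tested genes. Ly6c2 was 2.52-fold and 3.33-fold higher and Plac8 4.69-fold and 5.27-fold. Vcan was lower in both pairs, at 1 and 1.38 FPKM in RBP-J KO against 3.52 and 1.52 FPKM in WT. F13a1, the bulk of the replicate 2 sums, went in opposite directions in the pairs. It was at 148 and 900 FPKM in RBP-J KO and 354 and 738 FPKM in WT. The part of monocyte RNA in the members' levels was not tested. The 12 neutrophil markers summed to 8773 and 1220 FPKM in RBP-J KO and to 7378 and 369 FPKM in WT. Rbpj itself was at 51.5 and 77 FPKM in RBP-J KO, against 355 and 573 FPKM in WT, so both libraries labelled RBP-J KO had less of it.

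Of the 9 members, 7 (8 after quantile normalization) were higher in RBP-J KO in both pairs, against 25.1% of the 11851 tested genes, and 1 was lower in both pairs, against 34.1%. The median difference of the members was 0.37 on the log2(FPKM + 1) scale, with 0.42 in pair 1 and 0.30 in pair 2, beside -0.05, -0.05 and -0.02 over all tested genes. A difference of at least 1.5-fold upwards in both pairs was found for 2 members, Irf1 and Irf7 (3.86% of tested genes). For Irf1 and Irf3 each RBP-J KO library lay above each WT library (11.7% of tested genes), and for 0 members each lay below (18.2%). In limma with Benjamini-Hochberg adjustment no member passed an adjusted p of 0.05, and neither did any other gene (0 of 11851, 0%), while 524 genes (4.42%), with Irf1 the only member among them, had an unadjusted p under 0.05. The p-values measure the spread between libraries, and no label says that they came from separate mice, although the sex markers show different mice within each group.

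**Figure D1:**
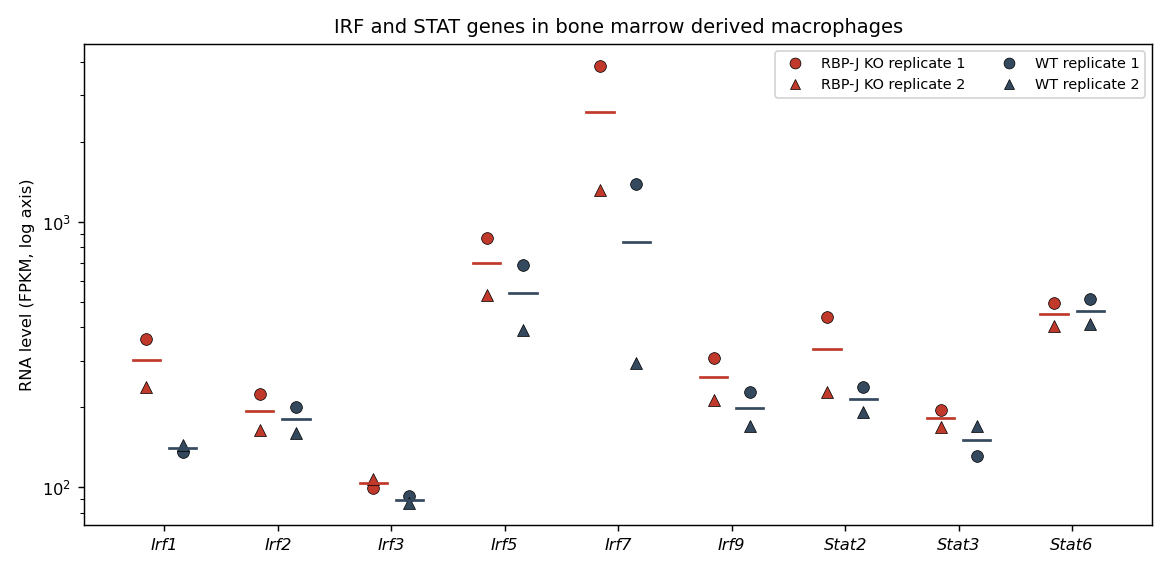
RNA levels of the 9 members in FPKM on a log axis, with each point a library, circles for replicate 1, triangles for replicate 2 and bars for group means. Irf1 in RBP-J KO (361 and 239 FPKM) stands clear of WT (136 and 144 FPKM), while for Irf7 RBP-J KO replicate 2 (1312 FPKM) lies below WT replicate 1 (1391 FPKM).

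Irf7, the amplifier of the type I interferon loop, had the largest difference of the 9 over all libraries. It was at 3861 and 1312 FPKM in RBP-J KO, against 1391 and 293 FPKM in WT. Inside the pairs RBP-J KO was 2.78-fold and 4.48-fold higher, yet the groups overlapped, because WT replicate 1 was 4.75-fold above WT replicate 2. The difference over all libraries was 1.82 on the log2 scale (SE 0.92, 95% interval -0.64 to 4.27, limma adjusted p = 0.999 with Benjamini-Hochberg). It was 0.69 without WT replicate 2, below the 1.10 of Irf1 then, 1.04 without RBP-J KO replicate 1 and 2.94 without WT replicate 1. A left-out library leaves replicate numbers unbalanced between the genotypes. A limma fit with the replicate number as a block gave an SE of 0.21 and an adjusted p of 0.0916 for Irf7. Irf7 was the 51st and 203rd highest of all genes in the RBP-J KO libraries and the 214th and 1482nd in WT. The upper part of this range lay in replicate 1, where neutrophil markers were also high. Plasmacytoid dendritic cells are rich in IRF7, and the summed level of the 5 markers of these cells was 47.3 and 5.69 FPKM in RBP-J KO and 8.15 and 19.2 FPKM in WT, with Pacsin1 and Klk1 at 0 in some libraries. Cox6a2 alone made up 17.7 FPKM of the sum in WT replicate 2, against 3.47 FPKM in RBP-J KO replicate 2, while Siglech, Ccr9 and Pacsin1 were slightly higher in RBP-J KO than in WT in that pair. In pair 1 all 5 were higher in RBP-J KO. The part of either marker list in the levels of Irf7 was not tested. In bulk RNA, more cells of a type and more RNA per cell cannot be told apart.

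Irf1, the activator at interferon gamma response sites, had nearly equal values in both WT libraries. It was at 361 and 239 FPKM in RBP-J KO, against 136 and 144 FPKM in WT, so the groups did not overlap. Its level in RBP-J KO was 2.65 times that of WT in pair 1, 1.66 times in pair 2 and 2.09 times over all libraries (log2 difference 1.06, SE 0.26, 95% interval 0.37 to 1.75, limma adjusted p = 0.726 with Benjamini-Hochberg). Irf1 was the only member for which the difference between genotypes was larger in both pairs than the difference between replicate numbers in either group. In RBP-J KO it passed Irf9, Irf2 and Stat3 in the order of mean levels, above which it did not stand in WT, although its library range overlapped that of Irf9 in RBP-J KO and that of Stat3 in WT.

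Irf2, the antagonist at the same sites, differed little. It was at 225 and 164 FPKM in RBP-J KO, against 201 and 161 FPKM in WT, or 1.12-fold and 1.02-fold in the pairs. The log2 difference was 0.10 (95% interval -0.57 to 0.76, limma adjusted p = 0.999), and its sign turned when either RBP-J KO replicate 1 (-0.13) or else WT replicate 2 (-0.06) was left out. The ratio of Irf1 to Irf2, taken on FPKM + 1, was 1.603 and 1.456 in RBP-J KO and 0.68 and 0.90 in WT. Irf1 thus exceeded Irf2 in each RBP-J KO library and lay under it in each WT library. An exact two-sided permutation test gave p = 0.333, the smallest p that 2 against 2 libraries allow.

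Irf3, the constitutive sensor-activated factor, was the lowest member in both groups and had the narrowest range over the 4 libraries. It was at 99.8 and 108 FPKM in RBP-J KO, against 92.6 and 87.2 FPKM in WT. Although the groups did not overlap, the difference was 1.08-fold in pair 1 and 1.23-fold in pair 2 (log2 difference 0.20, SE 0.18, 95% interval -0.28 to 0.68, limma adjusted p = 0.999). On FPKM + 1, Irf7 exceeded Irf3 by 38.3-fold and 12.1-fold in RBP-J KO, against 14.9-fold and 3.33-fold in WT (exact two-sided permutation p = 0.667).

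Irf5, the factor downstream of Toll-like receptors, was the second highest member by mean level in both groups. It was at 871 and 531 FPKM in RBP-J KO, against 684 and 390 FPKM in WT, higher by 1.27-fold and 1.36-fold inside the pairs. Both replicate 1 libraries were above the RBP-J KO library of replicate 2, so the groups overlapped (log2 difference 0.40, SE 0.40, limma adjusted p = 0.999). Without WT replicate 2 the difference was -0.01, and without RBP-J KO replicate 1 it was 0.04. Either omission leaves replicate numbers unbalanced between the genotypes.

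The partners in ISGF3 differed by unlike amounts. Irf9, its DNA-binding subunit, was at 306 and 213 FPKM in RBP-J KO, against 228 and 170 FPKM in WT, or 1.34-fold and 1.25-fold higher in the pairs (log2 difference 0.37, SE 0.28, limma adjusted p = 0.999). Stat2 was at 438 and 227 FPKM in RBP-J KO, against 238 and 192 FPKM in WT. Its difference was 1.84-fold in pair 1 and 1.19-fold in pair 2 (log2 difference 0.56, SE 0.37, limma adjusted p = 0.999). Without RBP-J KO replicate 1 the differences were 0.11 for Irf9 and 0.09 for Stat2, without WT replicate 2 the one of Irf9 was 0.16, and without RBP-J KO replicate 2 they were 0.64 and 1.03. For both genes RBP-J KO replicate 1 was the highest library and RBP-J KO replicate 2 lay under WT replicate 1.

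Stat3 and Stat6, which carry signals of interleukins, did not share a direction in both pairs with the IRF members. Stat3 was at 195 and 168 FPKM in RBP-J KO, against 131 and 170 FPKM in WT, which puts RBP-J KO 1.49-fold above WT in pair 1 and 1.01-fold below it in pair 2. Stat6 was at 493 and 406 FPKM in RBP-J KO, against 512 and 410 FPKM in WT. It was the single member lower in both pairs, by 1.04-fold and 1.01-fold. The log2 differences were 0.28 (95% interval -0.31 to 0.86) for Stat3 and -0.03 (95% interval -0.62 to 0.55) for Stat6, both with a limma adjusted p of 0.999. Leaving out WT replicate 1 gave 0.09 for Stat3. The sign of Stat6 turned when libraries were brought to equal medians (0.01) or equal distributions (0.03), and when WT replicate 1 (0.12) or, in turn, RBP-J KO replicate 2 (0.11) was left out.

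**Figure D2:**
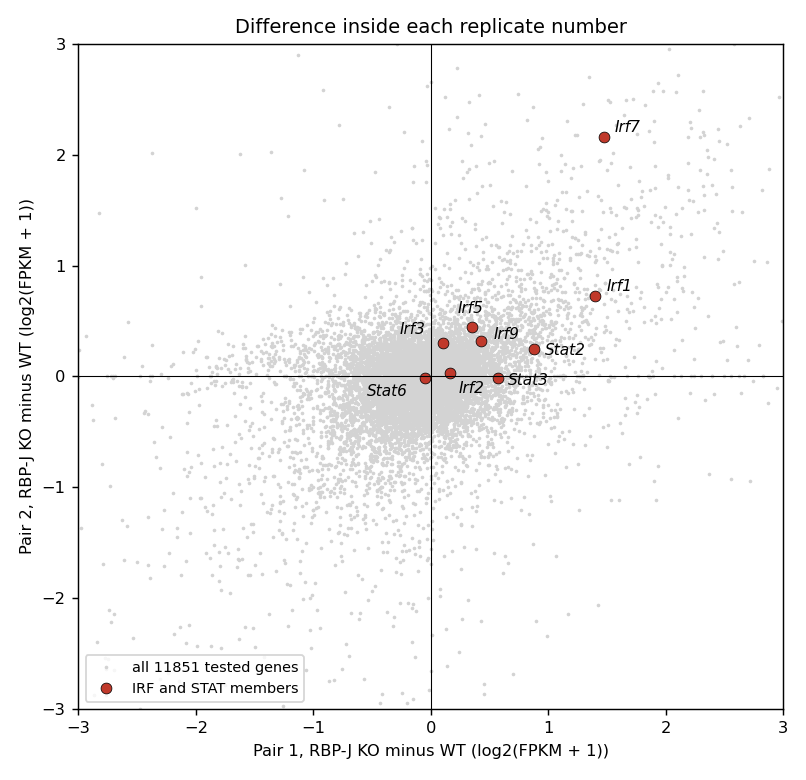
Difference between RBP-J KO and WT on the log2(FPKM + 1) scale in pair 1 (x axis) and pair 2 (y axis), with grey points for the 11851 tested genes and red points for the members (103 genes lie outside the axes). Irf7 and Irf1 stand apart at the upper right, 5 further members lie above 0 in both pairs, Stat3 above 0 in pair 1 alone, and Stat6 close to the origin.

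The members were thus higher in replicate 1 than in replicate 2 for 8 of 9 genes in RBP-J KO and 7 of 9 in WT, and 7 had their highest value in RBP-J KO replicate 1. In that library the 8 dendritic cell markers summed to 160 FPKM, against 39.2 FPKM in RBP-J KO replicate 2 and 35.1 and 51.6 FPKM in WT, with 6 of them, Xcr1 and Clec9a included, at 0 in some libraries. The 12 proliferation genes summed to 2344 and 3587 FPKM in RBP-J KO and to 4731 and 3360 FPKM in WT. The part of either in the members' levels was not tested. By mean level in RBP-J KO the order was Irf7, Irf5, Stat6, Stat2, Irf1, Irf9, Irf2, Stat3 and Irf3, where the library ranges of neighbours overlapped from Stat6 down to Stat3 and not elsewhere. In WT it was Irf7, Irf5, Stat6, Stat2, Irf9, Irf2, Stat3, Irf1 and Irf3, where the library ranges of neighbours overlapped except between Stat6 and Stat2 and between Irf1 and Irf3.

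The replicate 2 files list the transcripts of the members apart, which shows where their RNA came from in pair 2. Irf1 RNA was mostly the isoform a transcript NM_008390, at 219 FPKM in RBP-J KO and 123 FPKM in WT, while the other isoform a transcript, NM_001159396, was at 20.3 and 20.8 FPKM. The difference of Irf1 in pair 2 was thus that of NM_008390. Irf9 isoform 2 was at 143 FPKM in RBP-J KO and 116 FPKM in WT, isoform 3 at 46.2 and 41 FPKM, and isoform 1 at 23.7 and 12.9 FPKM. For Stat3 the level of the gene hid unlike values of its transcripts. NM_213659 was at 105 FPKM in RBP-J KO and 144 FPKM in WT, or 62.3% and 84.4% of Stat3. In the other direction, NM_213660 was at 40.7 FPKM in RBP-J KO and 26 FPKM in WT, and NM_011486 at 22.7 and 0.43 FPKM. Irf2, Irf3, Irf5, Irf7, Stat2 and Stat6 have a single transcript in the files. These values come from 1 library per genotype and have no replicate check, and the shares of near-identical transcripts are estimates of the authors' quantification.

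**Figure D3:**
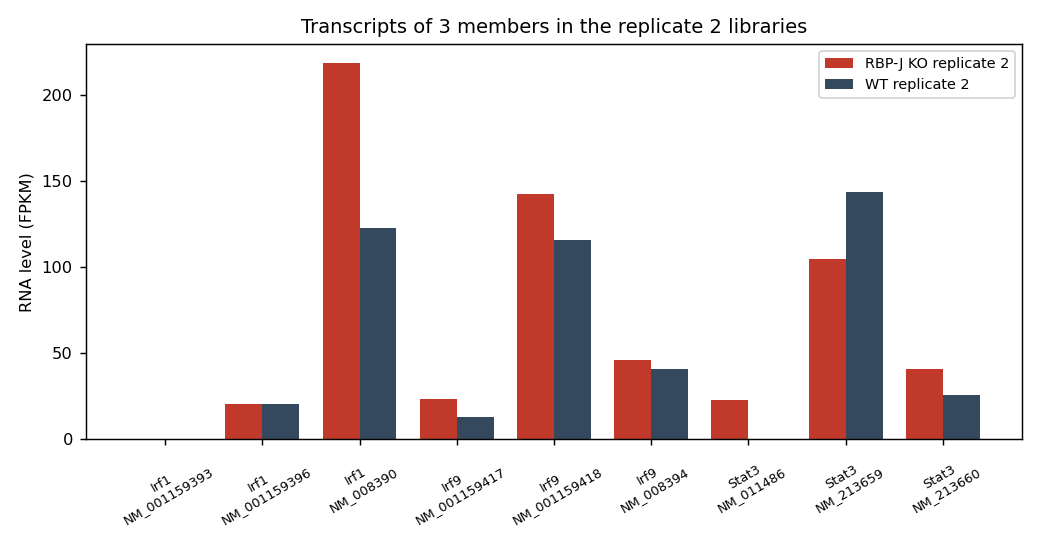
FPKM of each transcript of Irf1, Irf9 and Stat3 in the RBP-J KO and WT libraries of replicate 2, with 1 bar per library. For Stat3, NM_213659 is lower in RBP-J KO (105 against 144 FPKM), whereas NM_213660 (40.7 against 26 FPKM) and NM_011486 (22.7 against 0.43 FPKM) are higher.

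Among other genes of the families, Irf8, the lineage factor of monocytes, was at 362 and 377 FPKM in RBP-J KO, against 292 and 350 FPKM in WT. Irf4 stood at 7.81 and 11.5 FPKM in RBP-J KO and 6.56 and 9.66 FPKM in WT. Stat5b, which transmits growth factor signals, was at 81.4 and 103 FPKM in RBP-J KO and at 71.1 and 95 FPKM in WT, and the related Stat5a at 38.8 and 51.5 FPKM in RBP-J KO and 41.4 and 55.3 FPKM in WT. Stat4 stayed under 6 FPKM in each library.

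Ligands of the pathway were scarce. Of 12 listed, 3 passed the filter on low values, and Ifnb1, Ifna4, Ifng, Il4, Il6 and Il13 were listed at 0 in all 4 libraries. Il27, a subunit of a cytokine that signals through STATs, was at 8.33 and 11.9 FPKM in RBP-J KO, against 2.25 and 3.49 FPKM in WT, and had an unadjusted limma p of 0.013 (adjusted p = 0.745 with Benjamini-Hochberg). Il10 was at 20.9 and 23 FPKM in RBP-J KO and at 23.3 and 17 FPKM in WT, and Osm at 18.9 and 19.9 FPKM in RBP-J KO and at 15.9 and 21.8 FPKM in WT.

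Of 13 tested receptors that signal through STATs, 9 were higher in RBP-J KO in both pairs and 1 lower. The shares over all tested genes were 25.1% and 34.1%. The median log2 difference of the receptors was 0.43. The lower one was Il6st, at 79.5 and 79.2 FPKM in RBP-J KO against 82.2 and 132 FPKM in WT. Ifnar1, Ifngr2 and Il10rb went in opposite directions in the pairs. Il10ra, the IL-10 receptor chain that acts through STAT3, was at 418 and 262 FPKM in RBP-J KO, against 168 and 161 FPKM in WT. Il13ra1 was at 128 and 39.5 FPKM in RBP-J KO and 32.8 and 22.2 FPKM in WT. Il2rg, the common gamma chain, exceeded its WT level by 3.22-fold and 1.35-fold, and Csf3r, the G-CSF receptor that neutrophils carry, 2.63-fold and 1.54-fold. Among the JAK kinases, Jak1 was at 400 and 326 FPKM in RBP-J KO against 353 and 321 FPKM in WT, and Jak2 at 109 and 57 FPKM against 71.7 and 54.1 FPKM. Tyk2 was at 133 and 114 FPKM in RBP-J KO and 98.3 and 127 FPKM in WT, and Jak3 at 29 and 36.6 FPKM in RBP-J KO and 20.8 and 46.4 FPKM in WT, both in opposite directions in the pairs.

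Among 15 tested inhibitors of JAK-STAT signalling 8 were higher and 2 lower in both pairs (median 0.28), against 25.1% and 34.1% of all tested genes. Ptpn1, a phosphatase of JAKs and STATs, was at 470 and 391 FPKM in RBP-J KO, against 246 and 277 FPKM in WT. The phosphatase Ptpn6 was at 1354 and 1039 FPKM in RBP-J KO, against 845 and 805 FPKM in WT. Neither pair of groups overlapped. Socs3, the feedback inhibitor induced through STAT3, was at 15.8 and 6.28 FPKM in RBP-J KO and 3.78 and 4.18 FPKM in WT. Of the 18 tested sensors, adaptors and kinases that lead to IRF3, IRF5 and IRF7, 10 were higher and 4 lower in both pairs (median 0.17). The shares over all tested genes were 25.1% and 34.1%. Lower were Tlr4, Mavs, Tbk1 and Tlr8, the last at 465 and 444 FPKM in RBP-J KO against 568 and 471 FPKM in WT. Tlr9, the receptor of CpG DNA, was at 75.1 and 19 FPKM in RBP-J KO, against 11.3 and 10.1 FPKM in WT. Unc93b1, which delivers such receptors to endosomes, was 1.54-fold and 1.19-fold higher, the adaptor Myd88 1.28-fold and 1.30-fold, and the RNA sensor Ifih1 2.16-fold and 1.77-fold.

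Genes that the members are known to control differed by list. All 25 tested genes induced through ISGF3 were higher in RBP-J KO in both pairs (25.1% of all tested genes), 15 of them by at least 1.5-fold (3.86%). None of them had a limma adjusted p under 0.05. Their median was 0.71, with 0.85 in pair 1 and 0.63 in pair 2. Their summed level was 17312 and 8673 FPKM in RBP-J KO and 9369 and 5465 FPKM in WT, so RBP-J KO replicate 2 lay below WT replicate 1, as it did for Irf7. Isg15, a ubiquitin-like modifier, was at 1199 and 566 FPKM in RBP-J KO, against 439 and 224 FPKM in WT. Zbp1, a sensor of Z-form nucleic acid, was 2.93-fold and 1.72-fold higher, Ifi35 1.41-fold and 1.42-fold, and the GTPase Mx1 2.99-fold and 2.48-fold. Isg15 and Usp18 stand in the list of inhibitors as well, and Ddx58 in that of sensors, adaptors and kinases, so these lists share genes.

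Of 23 tested genes induced by interferon gamma or IRF1, 20 were higher and 0 lower in both pairs (25.1% and 34.1% of all tested genes). Their median was 0.71, and for 15 each RBP-J KO library lay above each WT library, as for Irf1 (11.7% of all tested genes). An unadjusted limma p under 0.05 was found for 8 (4.42% of all tested genes), and 0 passed the adjusted threshold. Psmb9, an immunoproteasome subunit, was at 524 and 513 FPKM in RBP-J KO, against 246 and 329 FPKM in WT. Tap1, the peptide transporter, was at 397 and 258 FPKM in RBP-J KO, against 183 and 132 FPKM in WT. The guanylate-binding proteins Gbp5 and Gbp7 stood at 5.30 and 3.11 times their WT level in pair 1 and at 4.02 and 1.82 times in pair 2.

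Genes induced through STAT3 and STAT6 were less uniform. Of 14 tested STAT3 genes, a list that includes Stat3, 5 were higher and 2 lower in both pairs, with a median of 0.28 overall and -0.07 in pair 2. Bcl3 was at 62 and 52.1 FPKM in RBP-J KO, against 46.5 and 43.3 FPKM in WT, while Junb was at 161 and 92.4 FPKM in RBP-J KO and 80.6 and 101 FPKM in WT, and Myc at 95.4 and 117 FPKM in RBP-J KO and 112 and 59 FPKM in WT. Of 11 tested STAT6 genes, 4 were higher and 5 lower in both pairs (median -0.22). For both lists the shares over all tested genes were 25.1% higher and 34.1% lower in both pairs. Klf4, a cofactor of STAT6 in alternative activation, was at 4.45 and 5.39 FPKM in RBP-J KO, against 13.2 and 27.2 FPKM in WT. Tgm2 was 1.98-fold and 3.61-fold higher. Clec10a was at 22.1 and 78.5 FPKM in RBP-J KO and 58.5 and 92.1 FPKM in WT, and Ccl22 at 10.4 and 0.99 FPKM in RBP-J KO and 1.91 and 0 FPKM in WT. These differences are given without a test of the lists against each other.

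**Figure D4:**
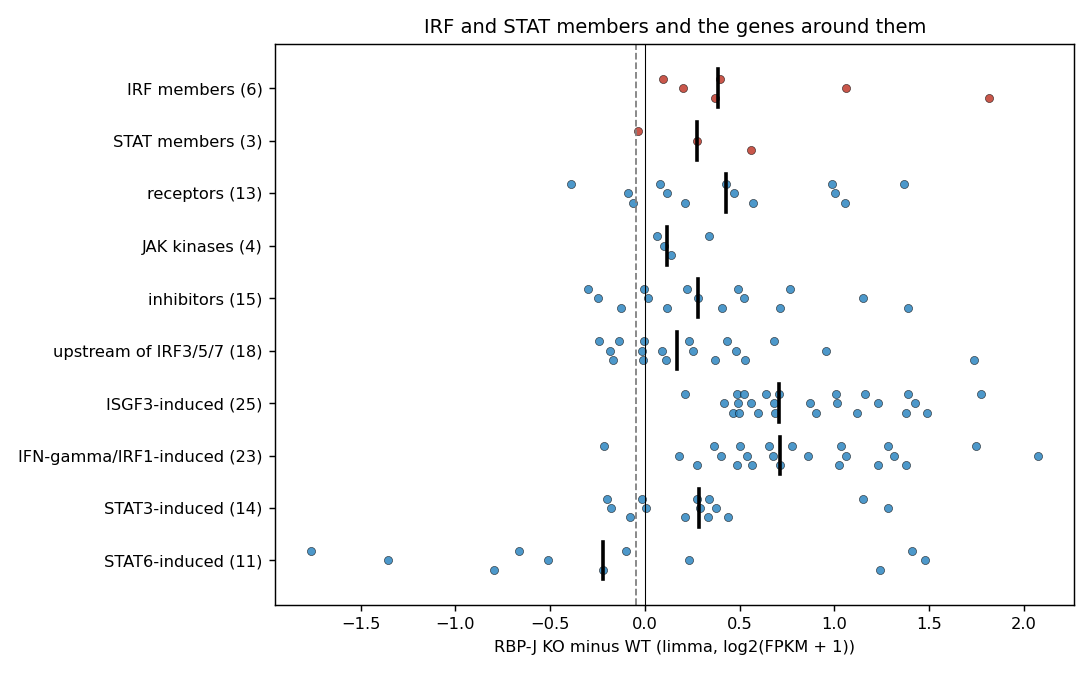
Difference between RBP-J KO and WT (limma, log2(FPKM + 1)) for each tested gene of the members and of 8 lists around them, with the number tested in parentheses, black bars for list medians and a dashed line for the median of all tested genes (-0.05). The ISGF3 genes lie wholly above 0, and the STAT6 genes spread to both sides.

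Among 9010 genes that averaged 20 FPKM or more, those whose centred log2 values lay nearest to Irf1 over the 4 libraries were Il10ra, Tbc1d8 and Gm4951, at Euclidean distances of 0.13, 0.16 and 0.19. Tbc1d8 was at 67.4 and 38.4 FPKM in RBP-J KO and 22.1 and 23.5 FPKM in WT, and Gm4951 at 143 and 107 FPKM in RBP-J KO and 50.5 and 59.1 FPKM in WT. Nearest to Irf7 were Filip1l, Prtn3 and Tle1 (0.25, 0.28 and 0.37). Prtn3 encodes a granule protease of neutrophils and their precursors and belongs to the neutrophil markers, and was at 85.5 and 36.6 FPKM in RBP-J KO and at 36 and 7.31 FPKM in WT. Tle1, a Groucho corepressor, was at 81.9 and 28.8 FPKM in RBP-J KO and 21.9 and 5.44 FPKM in WT. Nearest to Stat2 were the nucleoside transporter Slc29a3, the lysosomal phosphatase Acp2 and the double-stranded RNA receptor Tlr3 (0.09, 0.09 and 0.10). With 4 libraries these are descriptions of likeness only.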

How the data were processed

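Macrophage RNA of 2 RBP-J KO and 2 WT libraries was sequenced with the Illumina TruSeq RNA protocol per the labels. Groups and replicate numbers came from the sample titles. Per the submitters' processing notes, reads were processed with TopHat and Cufflinks on mm9. The deposited values were taken as FPKM, the unit that Cufflinks writes, although the headers name none, with versions and annotation not given in the sources used here. No clear whole-read steps were seen in low values: of the 500 lowest entries shared by the libraries of a pair, 2% in pair 1 and 9.6% in pair 2 fell in the commonest bin of their ratios. The lowest values of pair 2 (mean up to 0.29 FPKM) are coarse because the files give 2 decimals, with 48 entries equal in both libraries, and between 0.3 and 1 FPKM the shares were 2.20% in pair 1 and 1.67% in pair 2. Depth was not recovered, and no counting interval was computed.

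Transcript rows were summed per symbol, and 25 symbols turned into dates were restored. limma 3.58.1 (R 4.3.3) was fitted to log2(FPKM + 1), which understates folds of low genes, over the 11851 genes that averaged 1 FPKM or more, with genotype as the only term, a variance trend and two-sided Benjamini-Hochberg p-values (threshold 0.05). Single values without a p are described, not tested. The procedure was tested on simulated data with independent noise and no effect of replicate number. Those data lack the shared deviations of these libraries, so that test does not show the power of the fit here. Figures used matplotlib 3.10.9. Sequences are from RefSeq (GRCm38.p6), and no coordinates were joined to the mm9 data. The members, lists and tests were chosen with earlier results of these data known. Named were all members, Rbpj, up to 4 genes per list with the smallest p, all JAK kinases and other IRF and STAT genes, of which 2 are not reported here, and 3 genes nearest to Irf1, Irf7 and Stat2. Receptors and sensors that were lower in both pairs, and receptors that went in opposite directions, were named as well. Mb21d1 had no entry.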

Additional observations from a re-analysis of the deposited data

How the results depend on the processing

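Under 13 alternatives the 9 members gave 117 differences, of which 110 kept the sign found over all libraries and 0 passed an adjusted p of 0.05 in limma. The 7 that turned were 2 of Irf2, without RBP-J KO replicate 1 (-0.1302) and without WT replicate 2 (-0.0646), 1 of Irf5, without WT replicate 2 (-0.0085), and 4 of Stat6, after quantile normalization (0.0278), after median scaling (0.0078), without WT replicate 1 (0.1246) and without RBP-J KO replicate 2 (0.1065). With a library left out, Irf1 ranged from 0.7670 to 1.3582, Irf2 from -0.1302 to 0.3221, Irf3 from 0.1495 to 0.2571, Irf5 from -0.0085 to 0.8000, Irf7 from 0.6937 to 2.9388, Irf9 from 0.1099 to 0.6351, Stat2 from 0.0904 to 1.0341, Stat3 from 0.0921 to 0.4613 and Stat6 from -0.1930 to 0.1246. The cause was not tested, beyond that a left-out library leaves replicate numbers unbalanced between the genotypes. The median difference of the members (0.37) ranged from 0.11 without RBP-J KO replicate 1 to 0.64 without RBP-J KO replicate 2 when a library was left out, with 0.16 without WT replicate 2 and 0.58 without WT replicate 1, and the log2 Irf1 to Irf2 ratio difference (0.97) from 0.76 to 1.17. Members higher in both pairs numbered 7 under each alternative tried except quantile normalization, with 8. The count of genes past the threshold was 0 except with no filter, where it was 8, all with a mean under 1 FPKM and none a member.

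No label says that equal replicate numbers mark a shared mouse or day, but across genes, the libraries with equal numbers deviated together (r = 0.64). With the replicate number as a block, 0 genes passed, the smallest adjusted p being 0.0642. At an unadjusted p under 0.05 limma with the block had 1557 genes, 5 members among them (Irf1, Irf5, Irf7, Irf9 and Stat2), against 524 genes and 1 member without it. Irf7 had an adjusted p of 0.0916 and Irf1 of 0.171 with the block. With 2 libraries per group and no read counts, an adjusted p above the threshold does not show that a member did not differ.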
